A study of Bos taurus with 6 samples.

Results

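Toll-like receptors are membrane receptors of innate immunity, and the genes described here are those of the family with the symbols TLR1 to TLR10. Of these 10 symbols, 9 have a row among the 25444 genes of the mRNA count table, and TLR1 is not analysed here. Members were taken by symbol, and the family and the gene lists below were chosen with earlier results of these data known. The counts came from intramuscular fat dissected from the sternomandibularis, a neck muscle, of Chinese Qinchuan cattle slaughtered at 24 months of age. One library was made for steers, which had been weaned at 3 months and surgically castrated at 6 months, and one for bulls, which were weaned at the same age, kept on the same diets and left intact. Each library was 1 pool of RNA, from 6 animals by the series' design text and from 3 by the sample labels, and the animals were offspring of the same sire. No value below therefore has a spread between animals or between libraries.

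Toll-like receptors recognise molecules that are common in microbes and rare on healthy host cells. TLR1, TLR2, TLR4, TLR5, TLR6 and TLR10 sit mainly at the cell surface and face the outside, whereas TLR3, TLR7, TLR8 and TLR9 work in endosomes, where they meet nucleic acids. On binding they pair up, recruit adaptor proteins such as MyD88 or TRIF, and turn on NF-κB and interferon regulatory factors. In fat tissue they are known chiefly from the macrophages and other immune cells that lie between the adipocytes, although adipocytes express some of them as well.

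The steer library held 12677375 counts and the bull library 9868415, and median-of-ratios size factors of 1.04 and 0.959 placed them on 1 scale. Adipocyte genes were high in both, for example PLIN1, which coats lipid droplets, with 4499 counts in steers against 5386 in bulls, and ADIPOQ, the hormone adiponectin, with 4513 and 6651. Skeletal muscle genes were present too, with 32139 counts in steers and 49275 in bulls summed over 9 of them. An exact binomial test set the counts of a gene in steers and bulls against each other, and calls required both a change of more than 2-fold and an adjusted p under 0.05. The test compares these 2 libraries and not the conditions, and the 95% Clopper-Pearson (exact) intervals cover counting error only. Over the 17752 genes tested, 8.13% were called lower in steers and 4.37% higher.

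All 9 receptors had fewer scaled counts in steers than in bulls. Of all genes tested, 45.3% had a log2 fold change under 0 with libraries at 0 set at a floor of 3 counts. The test called 4 of them lower in steers, TLR7, TLR6, TLR2 and TLR5, and none higher, against 8.13% and 4.37% of all genes. Among the 10950 genes with 10 to 879 counts over both libraries, the range up to the most counted receptor, 11.3% were called lower. The other 5, TLR3, TLR4, TLR8, TLR9 and TLR10, were not called. Summed over the family, 625 counts in steers stood against 1355 in bulls, which is 2.36-fold lower after scaling, with an interval of 2.14-fold to 2.60-fold. The median log2 fold change, steers over bulls, was -1.33 over the 8 receptors with a count in both libraries, and that of all such genes was at 0. With 0.5 counts added to each library the medians were -1.68 for the 9 receptors and 0.01 for all genes, and with TLR10 set at a floor of 3 counts in steers the receptor median was -0.95.

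**Figure D1:**
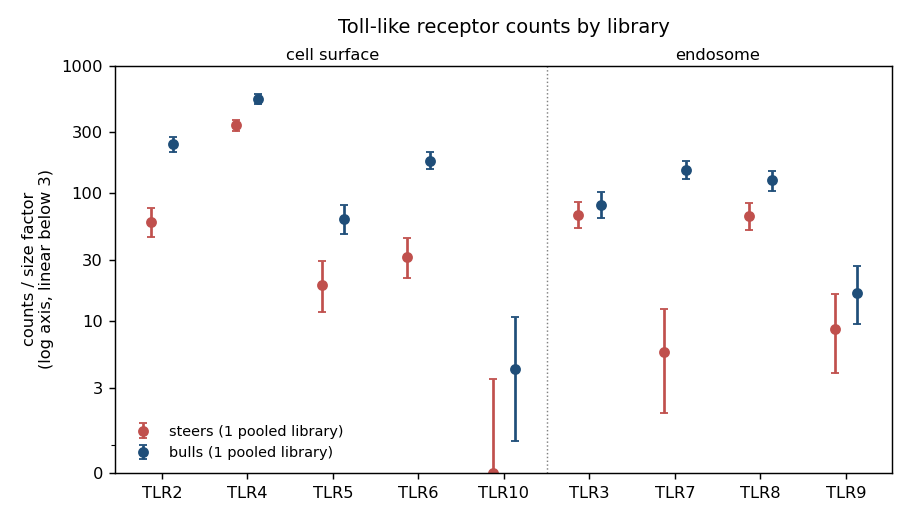
Counts of each Toll-like receptor divided by the size factor of the library (y axis, log scale that becomes linear below 3) in the steer and bull pools, with 95% exact intervals as bars, cell surface receptors left and endosomal receptors right. The bars of steers and bulls lie apart for TLR2, TLR4, TLR5, TLR6, TLR7 and TLR8 and overlap for TLR3, TLR9 and TLR10.

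Among the surface receptors, TLR2 and TLR6 form a pair that binds lipopeptides of bacteria and mycoplasma. TLR2 had 62 counts in steers and 232 in bulls. It was 4.07-fold lower in steers, with an interval of 3.07-fold to 5.48-fold (adjusted p = 3.12e-26, exact binomial test). TLR6 had 33 counts in steers and 173 in bulls. It was 5.71-fold lower, between 3.91-fold and 8.55-fold (adjusted p = 1.73e-25, exact binomial test). A difference in change between the partners was not detectable: per TLR6 count there were 1.88 TLR2 counts in steers and 1.34 in bulls, and the 1.40-fold difference between these ratios had an interval of 0.86 to 2.31, which holds 1.

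TLR6 and TLR10 are relatives of TLR1 and lie side by side with it in mammals. In the RefSeq annotation of assembly ARS-UCD2.0 the spans of TLR6 and TLR10 overlap, and TLR1 is listed as an older name of both. How the counting treated reads that fit more than 1 of these genes, and whether it used the strand, is not given in the sources used here, so the split of counts between TLR6 and TLR10 is uncertain. TLR10 itself had 0 counts in steers and 4 in bulls. With the steer library set at a floor of 3 counts the difference was 1.45-fold, but the exact interval reached down to 0.718-fold, on the other side of no change, so a difference was not detectable at this depth (adjusted p = 0.209, exact binomial test).

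TLR5, the receptor for bacterial flagellin, had 20 counts in steers and 60 in bulls. It was 3.27-fold lower in steers, and the interval of 1.94-fold to 5.72-fold reached below the 2-fold threshold (adjusted p = 8.21e-06, exact binomial test). TLR4, which binds lipopolysaccharide of Gram-negative bacteria together with MD-2, had 355 counts in steers and 524 in bulls. It was 1.61-fold lower, between 1.40-fold and 1.84-fold, so its whole interval lay under the threshold and it was not called in spite of an adjusted p of 3.81e-11 in the exact binomial test. TLR4 made up 56.8% of the family's counts in steers (52.8% to 60.7%) and 38.7% in bulls (36.1% to 41.3%). Without it the family sum was 270 counts in steers and 831 in bulls, a 3.35-fold difference.

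TLR7, an endosomal receptor for single-stranded RNA, showed the widest gap of the family, with 6 counts in steers and 147 in bulls. It was 26.7-fold lower in steers, and its interval ran from 12.0-fold to 73.8-fold (adjusted p = 1.65e-37, exact binomial test). Its share of the family's counts was 0.96% in steers (0.353% to 2.08%) and 10.8% in bulls (9.24% to 12.6%). TLR8, which also binds single-stranded RNA, had 69 counts in steers and 121 in bulls. It was 1.91-fold lower, between 1.41-fold and 2.60-fold, and fell short of the fold threshold (adjusted p = 8.44e-05, exact binomial test). RefSeq places no other protein-coding gene between TLR7 and TLR8, so these neighbours differed widely in how far the libraries were apart: the count ratio of TLR7 to TLR8 was 0.0870 in steers and 1.21 in bulls, 13.9-fold apart.

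TLR3, the receptor for double-stranded RNA, and the one member that signals through TRIF without MyD88, had 71 counts in steers and 78 in bulls. The difference was 1.20-fold with an interval from 0.856 to 1.67 (adjusted p = 0.494, exact binomial test). A reduction in steers beyond 1.67-fold thus lay outside the counting interval of TLR3, while for TLR7 every value in the interval was above 10-fold. TLR9, which detects unmethylated CpG DNA, had 9 counts in steers and 16 in bulls, 1.93-fold lower, and with so few counts its interval of 0.805 to 4.97 covered both no change and the change of TLR2 (adjusted p = 0.289, exact binomial test). By site, 3 of the 5 surface receptors and 1 of the 4 endosomal ones were called lower. The sums of both classes were lower in steers, with 470 against 993 counts at the surface (log2 fold change -1.20, -1.36 to -1.04) and 155 against 362 in endosomes (-1.35, -1.63 to -1.07), and these intervals overlapped.

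**Figure D2:**
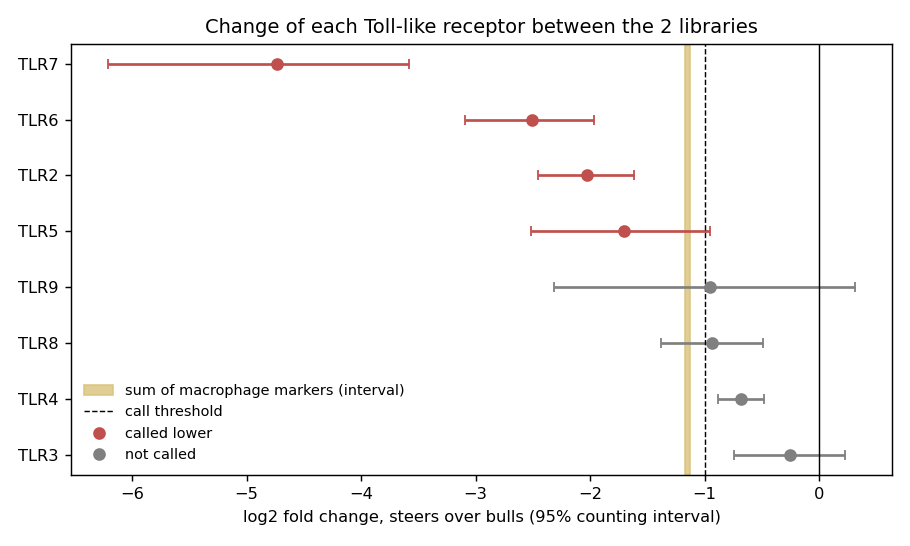
Log2 fold change, steers over bulls (x axis), of the 8 Toll-like receptors with a count in both libraries, with 95% counting intervals as bars. The dashed line is the fold threshold at -1, and the shaded band is the interval of the summed macrophage markers, from -1.17 to -1.12. TLR7, TLR6, TLR2 and TLR5 are called lower, and TLR7 lies farthest from 0 at -4.74.

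The receptors did not differ between the libraries by a common factor. For the 8 receptors with at least 10 counts, the count ratio of each pair was compared between the libraries, which needs no scaling. Of the 28 pairs, 17 had a 95% exact interval of the difference that left out 1. These intervals cover counting error only and are not adjusted for the number of pairs. Pairs of other genes were not compared, so this count cannot be read as a trait of the family. TLR7 did so with all 7 of its partners: its ratio to TLR4 differed 16.6-fold and that to TLR3 22.1-fold, and the smallest difference, to TLR6, was 4.66-fold (1.86 to 14.0). TLR6 did so with 5, TLR3 with 5, TLR2, TLR4 and TLR8 with 4 each, TLR5 with 3 and TLR9 with 2. Among TLR3, TLR4, TLR8 and TLR9 the intervals mostly held 1: TLR4 to TLR8 differed 1.19-fold (0.849 to 1.67) and TLR8 to TLR9 1.01-fold (0.397 to 2.75), although TLR3 to TLR8 differed 1.59-fold with an interval of 1.01 to 2.53.

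**Figure D3:**
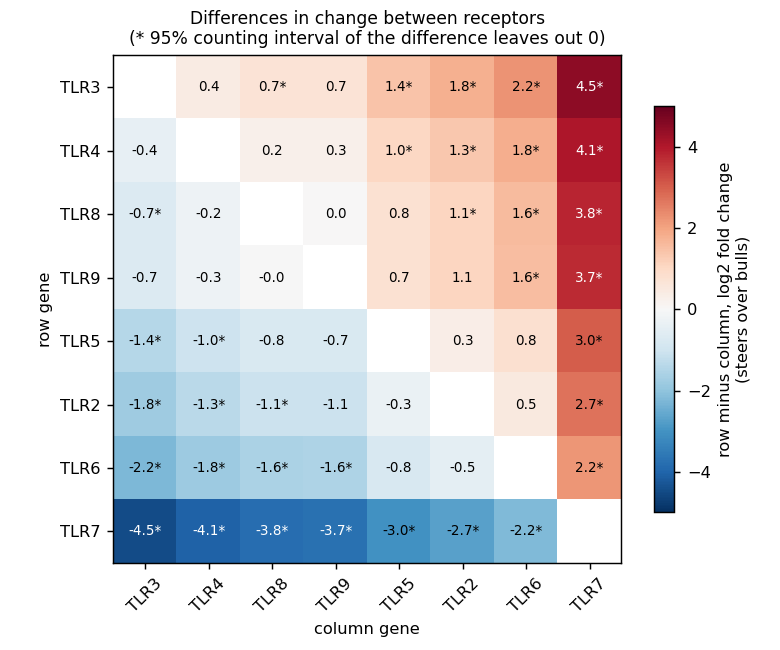
Difference in log2 fold change (steers over bulls) between each pair of Toll-like receptors, row gene minus column gene, as color and number, with an asterisk where the 95% counting interval leaves out 0. The row and column of TLR7 carry an asterisk against all 7 others, and those of TLR9 against TLR6 and TLR7.

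Toll-like receptors reach their ligands with the help of co-receptors. The list named co-receptors here also holds related and ligand-binding proteins, such as CD180, LY86 and BPI, that are not helpers of this kind. Of its 7 counted genes, 4 were called lower in steers and 1 higher, against 8.13% and 4.37% of all genes. The median log2 fold change of the list was -2.34. CD14, which hands lipopolysaccharide to TLR4 and also serves TLR2, had 534 counts in steers against 2490 in bulls (log2 fold change -2.34, -2.48 to -2.21). CD180, a relative of TLR4 that lacks a signaling domain, had 1 count in steers against 95 in bulls (-6.69, -12.0 to -4.18). LY86, its secreted partner, had 22 against 174 (-3.11). BPI, which binds and neutralizes lipopolysaccharide, had 47 and 346 counts (-3.00). TRIL, an accessory protein of TLR3 and TLR4, went the other way with 29 counts in steers and 10 in bulls (1.41, 0.34 to 2.62; adjusted p = 0.022, exact binomial test), a call that was lost with scaling by total counts and under each assumed spread between pools. LBP, the plasma carrier of lipopolysaccharide, and CD36, a scavenger receptor that works with TLR2, were not called, at -0.41 and -0.39. TLR4 and CD14 thus differed between the libraries by unlike amounts: per 1000 CD14 counts there were 665 TLR4 counts in steers and 210 in bulls.

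The proteins that fold, move and process the receptors were for the most part not called, with 2 of 13 called lower, none higher and a median of 0.15. These 2 are 15.4% of the list, near the 11.3% of genes in the receptors' count range. The 2 that were called lower act on the endosomal receptors, but not every gene of the list that does so was called. AP3B1, CTSB, CTSK, CTSL and LRRC59 were not called either and lay between 0.05 and 0.71. Of these, CTSB, CTSK and LRRC59 passed the adjusted p but not the fold threshold. UNC93B1, which escorts the endosomal receptors from the endoplasmic reticulum, had 382 counts in steers against 922 in bulls (log2 fold change -1.39, -1.57 to -1.22). CTSS, a lysosomal protease that helps to cleave them and is plentiful in macrophages, had 1194 and 3522 counts (-1.68). HSP90B1 and CNPY3, a chaperone and its cofactor that most family members need in order to fold, were not called, at 0.73 and -0.60. Both passed the adjusted p but not the fold threshold. SLC15A4, an endolysosomal transporter that TLR7 and TLR9 signaling depends on, was not called, at -0.03, and did not pass the adjusted p. Per 1000 UNC93B1 counts there were 15.7 TLR7 counts in steers and 159 in bulls, but 186 TLR3 counts in steers and 84.6 in bulls.

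Of the 32 shared adaptors, kinases, ligases and transcription factors below the receptors, 4 were called lower (12.5%) and none higher, a share near the 11.3% of genes in the receptors' count range. By the adjusted p alone 14 of them passed, 11 lower and 3 higher, so 10 differed between the libraries by less than the fold threshold. Over all 17752 genes tested, 3254 were lower and 3535 higher by the adjusted p alone. Of 6 adaptors 1 was called, PIK3AP1, which links the receptors to phosphoinositide 3-kinase and is found in B cells and myeloid cells, with 157 counts in steers and 455 in bulls (log2 fold change -1.66). MYD88, the adaptor of every member except TLR3, had 907 and 1129 counts, a difference that passed the adjusted p but not the fold threshold (-0.44, -0.57 to -0.31). TICAM1, which encodes TRIF, had 89 and 66 (0.31), TIRAP stood at 0.35, TICAM2 at -0.05 and SARM1 at 0.21, and none of these 4 passed the adjusted p. Of 19 kinases and ubiquitin ligases, 2 were called lower: BTK, a kinase of B cells and myeloid cells, with 88 and 303 counts (-1.91), and IKBKE, an IκB kinase relative that phosphorylates interferon regulatory factors, with 50 and 172 (-1.90). RIPK1, UBE2V1, IRAK2 and TAB1, those of this group with the most counts, lay between -0.19 and 0.46. Of 7 transcription factors only IRF5, which TLR7, TLR8 and TLR9 use to switch on cytokine genes, was called, with 227 and 716 counts (-1.78), and the NF-κB subunit RELA stood at 0.02.

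The genes that restrain the pathway had a median of -0.18. Against 8.13% and 4.37% of all genes, 4 of 15 were called lower and none higher. These were ATF3, a transcriptional repressor induced by the receptors, with 62 counts in steers and 364 in bulls (log2 fold change -2.68), NRROS, a membrane protein related to the receptors and listed as LRRC33, with 130 and 578 (-2.27), TNFAIP3, the ubiquitin-editing enzyme A20, at -1.58, and SOCS1, a suppressor of cytokine signaling, at -1.56. TNFAIP3 and SOCS1 were named after their values had been seen. NFKBIA, the main inhibitor of NF-κB, was not called, at -0.22. TNIP1 and RNF216, also among the best counted of the list, were not called either, at -0.0004 and 0.02.

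Genes that the receptors are known to induce were called lower in 8 of 18 cases, against 8.13% of all genes, and called higher in none. Their median was -2.04 and moved to -1.17 when libraries at 0 were set at the floor. The 8 fell to 5 and 2 with an assumed biological coefficient of variation of 0.2 and 0.4, where 4.29% and 0.524% of all genes were called lower. CXCL10, an interferon-induced chemokine, had 0 counts in steers and 177 in bulls, at least 51.7-fold lower by the exact interval. CCL5, a chemokine of T cells and macrophages, had 4 and 170 counts (log2 fold change -5.53), and CD86, a co-stimulatory molecule of antigen-presenting cells, had 75 and 453 (-2.72). The cytokines most often read as a sign of Toll-like receptor activity were scarcely counted in either library: TNF and IL1A each had 0 counts in steers and 3 in bulls, IL12A had 1 and 0, IL12B had 0 and 5, IL1B had 3 and 10, and IL6 had 6 and 1. These cytokines were named after their values had been seen. ICAM1, an adhesion molecule of endothelium and leukocytes, was not called, at -0.53.

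Other families of pattern recognition receptors were mostly called lower as well, in 9 of 14 genes against 8.13% of all genes, with a median of -1.75. Under 0 were 13 of the 14. CLEC4E and CLEC7A, which bind mycobacterial glycolipids and fungal β-glucan, were counted 4 and 2 times in steers but 70 and 26 times in bulls. NLRP3, an inflammasome sensor, stood at -2.02 and IFI16, a DNA sensor, at -1.05. NOD2, a cytoplasmic sensor of bacterial peptidoglycan, was the 1 gene called higher in steers, with 542 counts against 158 in bulls (log2 fold change 1.66, 1.40 to 1.92). Of 6 interleukin-1 receptor family genes, which share the cytoplasmic TIR domain with the Toll-like receptors, 2 were called lower and the best counted, IL1R1, stood at -0.02. Over all 104 tested genes of the 9 pathway lists, 33 were called lower (31.7%) and 2 higher (1.92%), with a median of -0.54.

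**Figure D4:**
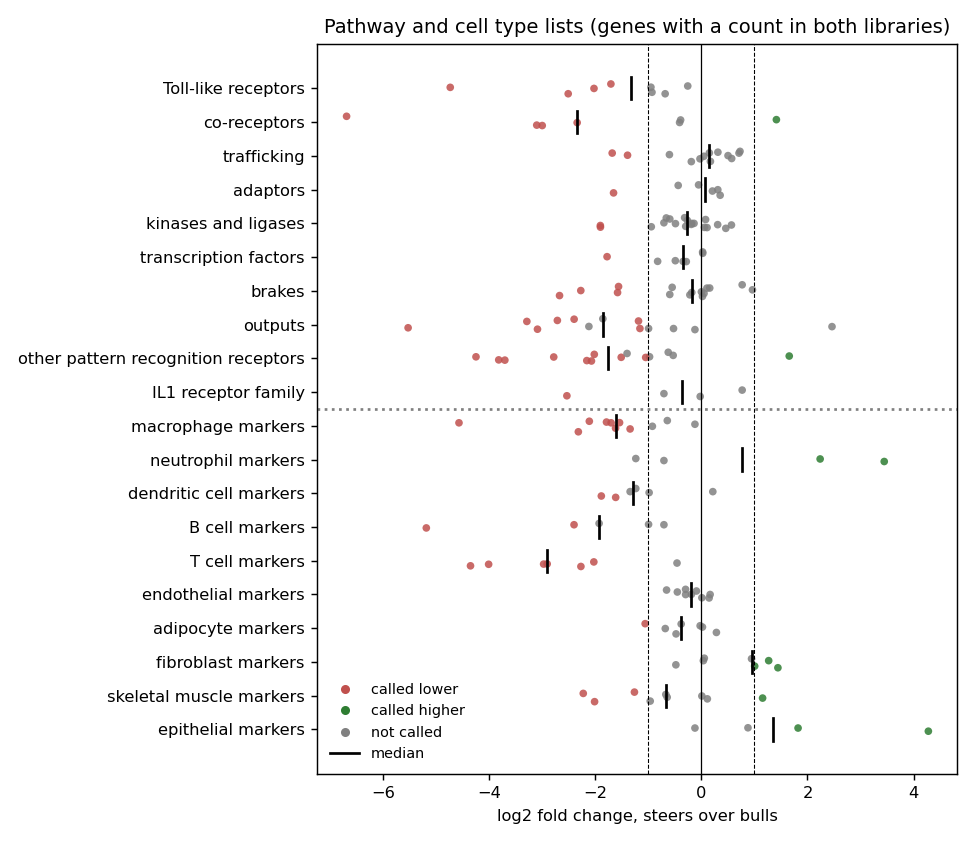
Log2 fold change, steers over bulls (x axis), of genes with a count in both libraries, by list, with pathway lists above the dotted line and cell type markers below it. Points are genes, black bars list medians over the plotted genes and dashed lines the fold threshold. Adaptors and trafficking genes have medians near 0, while T cell markers lie mostly below -2.

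Markers of the cells that carry these receptors differed between the libraries too. Over all genes tested, 8.13% were called lower in steers and 4.37% higher. Of 11 macrophage genes, 8 were called lower in steers and none higher. Their sum was 20294 counts in steers and 41347 in bulls, 2.22-fold lower. CSF1R, the receptor that macrophages need to survive, had 7057 and 12309 counts (log2 fold change -0.92), C1QA, a complement subunit, had 3487 and 8137 (-1.34), and ADGRE1, the F4/80 antigen, listed as EMR1, had 7 and 153 (-4.57). Of 8 T cell genes 7 were called lower, with 162 counts summed in steers and 822 in bulls, and CD3G and CD8A stood at 0 and 5 in steers. Of 6 B cell genes with a count, 2 were called lower, CD22 and CD72, with 28 and 164 counts summed, while the defining genes MS4A1 and CD79B had no count in either library. Of 7 dendritic cell genes 3 were called lower, FLT3, XCR1 and SPIB. With an assumed biological coefficient of variation of 0.1 and 0.2 this fell to 1 and 0, and the share of all genes to 7.04% and 4.29%. The 7 genes summed to 208 and 345 counts, of which BATF3, which was not called, gave 100 and 182. The granulocyte genes CSF3R and CXCR2 were near 0 in both libraries, with 6 and 13 counts and 0 and 3 counts, whereas S100A8 and S100A9 were higher in steers, with 95 against 8 and 149 against 29, and S100A12 was not called, with 20 against 30 (log2 fold change -0.71). The median of these 5 genes was -0.70, and 0 with libraries at 0 set at the floor. Their sum was 270 counts in steers and 83 in bulls, 2.99-fold higher in steers, mostly from S100A8 and S100A9. Fewer cells of a type and less RNA per cell cannot be told apart in such pools, and the part that these cell types had in the receptor values was not tested.

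Receptors were set against the summed macrophage markers and against CD14 of the co-receptor list, and the size of the ratios depended on this choice. The summed marker counts came mostly from a few abundant genes such as CSF1R and CD163. This sum had a log2 fold change of -1.15 against a list median of -1.62. Per 1000 summed marker counts there were 3.06 TLR2 counts in steers and 5.61 in bulls, 1.63 and 4.18 of TLR6, 0.986 and 1.45 of TLR5, and 0.296 and 3.56 of TLR7. TLR4, in contrast, had 17.5 in steers and 12.7 in bulls, and TLR3 had 3.50 and 1.89. TLR8 and TLR9 were close, with 3.40 and 2.93 for TLR8 and 0.443 and 0.387 for TLR9. The interval of TLR5 covers the change of the marker sum, so its side was not established. Per 1000 counts of CD14 in place of the sum, TLR2 had 116 in steers and 93.2 in bulls, and TLR5 had 37.5 and 24.1. TLR6 had 61.8 and 69.5, and TLR7 had 11.2 and 59.0. The log2 fold change of CD14, -2.34, lay within the intervals of TLR2 (-2.45 to -1.62), TLR5 (-2.52 to -0.956) and TLR6 (-3.10 to -1.97). The side of these 3 receptors relative to CD14 was therefore not established. Endothelial genes differed little, with none of 9 called and a 1.04-fold difference in their sum, and adipocyte genes were 1.24-fold lower in steers in sum. Fibroblast genes were 2.05-fold higher in sum, but most of that sum came from the collagens COL1A1, COL3A1 and COL6A1, the 3 of 7 called higher. The other 4 were not called and lay between log2 fold changes of -0.48 and 0.95, with DCN at 0.04. Skeletal muscle genes were 1.67-fold lower in sum, with 3 of 9 called lower and 1 higher. Of 5 epithelial genes 3 were called higher, KRT8 among them with 148 counts against 7. The shares over all genes were 8.13% called lower and 4.37% higher.

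How many receptors were called depended on the spread that is assumed between pools, which 1 library per group cannot show. With an assumed biological coefficient of variation of 0.4, TLR7 was the only receptor still called lower (adjusted p = 0.0065, edgeR's exact test), where 0.524% of all genes were. With scaling by total counts TLR8 joined the called receptors, which made 5, and 11.3% of all genes were called lower. With the adjusted p alone and no fold threshold TLR4 and TLR8 joined, which made 6, against 18.3% of all genes.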

How the data were processed

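Total RNA was sequenced on an Ion Proton instrument. The authors removed adaptors and low-quality reads, used MapSplice to align what was left to the bovine genome and deposited raw counts per gene. The counting program, its use of strand and of reads with several matches are not given in the sources used here. Labels gave the groups, castrated (steers) and intact (bulls), with 1 pooled library each. The miRNA counts were not used here.

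Counts were scaled by median-of-ratios size factors (numpy 2.4.6). Each of the 17752 genes with at least 1 count was tested with a two-sided exact binomial test (scipy 1.17.1) and Benjamini-Hochberg adjustment over all of them. Calls needed an absolute log2 fold change over 1 together with an adjusted p under 0.05. As no group had a replicate, edgeR's quasi-likelihood test and DESeq2 could not be fitted. Intervals are 95% Clopper-Pearson for single genes and sums, and exact conditional ones for pairs. Reads are not independent molecules, so intervals and floors cover counting error only. A library at 0 was set to a floor of 3 counts for the fold threshold and for medians at the floor, and list medians have 0.5 counts added. On simulated Poisson counts of this depth 199 of 200 genes changed 4-fold and 183 of 200 changed 2.5-fold were called. The simulation had no spread between animals or pools, so it checks the computation and not the design. Its changed genes all had higher mean counts than TLR9 and TLR10.

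The two-sided p was first computed by summing all outcomes no likelier than the observed one, which called 827 genes higher and 1509 lower. It was then changed, after both results and an earlier analysis of these data had been seen, to 2 times the smaller tail, which called 776 and 1444, equal to that earlier analysis, and left the receptor calls as they were. Pair and ratio comparisons were added after the counts had been seen. Pairs were first run with Fisher's exact test and ratios against 7 references, and both were reduced to values without a p. The members and gene lists were chosen with earlier results of these data known.

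Named genes are all members, any co-receptor, trafficking, adaptor or dendritic cell gene, and of other lists the 4 with the most counts, the 2 with the largest change among those with at least 20 counts, and those called against their list's direction. The 9 members matched RefSeq (ARS-UCD2.0), used for names and neighbours only. Without transcript lengths, the planned levels per length were not computed, so shares and ratios of counts between genes depend on gene length and are compared between the libraries only. Alternatives were other scalings, count filters, priors, call rules and assumed coefficients of variation of 0.1, 0.2 and 0.4 (edgeR 4.0.16 under R 4.3.3).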

Additional observations from a re-analysis of the deposited data

How the results depend on the processing

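Over 13 alternatives, TLR7 was called lower in each, with log2 fold changes from -4.98 to -3.91, and TLR2 (-2.27 to -1.94), TLR5 (-1.95 to -1.50) and TLR6 (-2.75 to -2.35) in 12 each; all 4 kept their direction. The exception was an assumed biological coefficient of variation of 0.4, under which 1 receptor was called lower and, of the pathway genes, 4 lower and 0 higher; adjusted p in edgeR's exact test was then 0.568 for TLR2, 1 for TLR5 and 0.287 for TLR6. Assumed coefficients of 0.1 and 0.2 left 1 pathway gene called higher each, and so did scaling by total counts. With no fold threshold 50 of the 104 pathway genes were called lower and 13 higher, against 3254 and 3535 of all 17752 genes. Scaling by total counts shifts every log2 fold change by -0.24 and takes the share of calls that are higher in steers from 35.0% to 21.2% over all genes; it is larger than the medians above 0 of the trafficking and adaptor lists (0.15 and 0.08). The two-sided p that sums outcomes no likelier than the observed one, an alternative chosen after seeing the data, left 4 receptors called lower and, of the pathway genes, 33 lower and 2 higher. No receptor changed its direction under an alternative. Levels per length could not be computed, since no lengths were at hand, so they were not set against counts without division by length. No paired analysis was possible because each group has 1 mRNA library, and leaving out a library leaves no comparison. Receptors with fewer than 30 counts over both libraries, TLR9 and TLR10, are limited by depth.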
